A study of Rattus norvegicus with 8 samples.

Results

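The results concern 2 of the 31185 genes in the deposited table: Bdnf (ENSRNOG00000047466), which encodes brain-derived neurotrophic factor, and Ntrk2 (ENSRNOG00000018839), which encodes its receptor TrkB. They were chosen by gene ID, and the rule used no measured value, although earlier results of these data were known at that choice. The study's title names TrkB. The table lists Ensembl IDs without symbols, and the RefSeq table used here matched 0 of those IDs. The pairing of the 2 IDs with their symbols was therefore taken as given and was not checked against an annotation. Adult male rats of the outbred Sprague-Dawley strain provided the tissue, prefrontal cortex (PFC) and hippocampus, and RNA was sequenced from each. Each tissue has 1 library for each of 4 treatments. The control rat was not stressed and had saline. The other rats went through a chronic stress protocol, called CMS in the labels, and had saline, methylglyoxal (MGO) or luteolin. MGO is a reactive dicarbonyl formed as a by-product of glycolysis, and luteolin is a plant flavonoid. Drugs were injected intraperitoneally each day during the final 3 weeks of stress, and tissue was dissected in week 7. The labels state MGO as 5 mM/kg/day in one place and as 100 mM/kg in another, and luteolin as 10 mg/kg/day. The protocol mentions no luteolin rat. With 1 library per tissue and treatment, differences between treatments carry no test.

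BDNF is made as a precursor that is cleaved to the mature neurotrophin. It binds TrkB, a receptor tyrosine kinase that signals through the MAPK, PI3K-AKT and phospholipase C-gamma routes and is studied for its part in synaptic plasticity in cortex and hippocampus. Bdnf is transcribed from several alternative starts, each with its own first exon spliced to a shared coding exon, and its RNA responds to neuronal activity. Ntrk2 gives rise to the full-length kinase and to truncated receptors without a kinase domain, of which TrkB.T1 is abundant in astrocytes. RefSeq lists 11 transcripts for Bdnf and 14 for Ntrk2 (GRCr8 build). The deposited values give 1 number per gene, so neither the Bdnf starts nor the TrkB isoforms can be told apart in what follows. In whole tissue, fewer cells that express a gene and less RNA per cell cannot be told apart either.

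The single Bdnf value covers RNA from starts with different upstream sequence. The 2 shown are those whose windows held a match in the motif search described next. The RefSeq promoter table matched Bdnf by symbol with 6 start windows, and Ntrk2 had no entry. The 250 bases before each start were searched on both strands for the cAMP response element TGACGTCA and for the related octamers TCACGTCA and TCACGTAA. No motif overlapped another. The capitals mark the matches, which lie 91 to 84 bases before the start in the 5′-most window and 38 to 31 bases before the start in the window listed as number 4.
Bdnf start 1 of 6, chr3:116619383-116619632 (GRCr8, + strand): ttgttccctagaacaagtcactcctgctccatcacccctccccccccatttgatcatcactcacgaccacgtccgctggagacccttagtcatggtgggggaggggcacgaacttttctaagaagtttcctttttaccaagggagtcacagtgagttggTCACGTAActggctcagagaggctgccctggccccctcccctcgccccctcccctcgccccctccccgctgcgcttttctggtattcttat
Bdnf start 4 of 6, chr3:116637608-116637857 (GRCr8, + strand): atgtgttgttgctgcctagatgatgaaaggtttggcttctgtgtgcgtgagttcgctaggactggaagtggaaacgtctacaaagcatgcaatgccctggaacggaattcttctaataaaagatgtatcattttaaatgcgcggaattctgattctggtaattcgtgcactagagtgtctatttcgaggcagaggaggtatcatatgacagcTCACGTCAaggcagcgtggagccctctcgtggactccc
TGACGTCA was in none of the 6 Bdnf windows and in 1.59% of all 33469 windows of this length. TCACGTCA was in 0.35% of all windows and TCACGTAA in 0.188%. How the 2 octamers were chosen is not recorded. The shares therefore describe the windows and do not test whether the matches are unusual for Bdnf. These matches are letters in a reference sequence of another build than the one named for the expression values, and the expression data do not show which start was used.

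Depth and library differences were as follows. Values are taken as FPKM, that is, fragments divided by gene model length in kilobases and scaled by the number of mapped fragments. The genes used for comparison are the 12155 that averaged 1 FPKM or more over the 8 libraries. Absolute depth is unknown, while steps between low values gave relative depths of 0.854 to 1.35 as multiples of the control PFC library. The CMS + luteolin hippocampus library was the deepest on this measure and stood apart from its tissue. The robust SD of its log2 differences from the other 3 was 0.41 to 0.44, against 0.19 to 0.21 among those 3. Both CMS + saline libraries carry a different code in their descriptions from the other 6, so this code cannot be told apart from treatment in any comparison with CMS + saline. The 6 pathway and 10 cell and region marker lists were not evaluated for want of symbols, so the tissue labels were not checked against markers.

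Bdnf, the ligand, was under 1 FPKM in 4 libraries and at 2.86 FPKM or above in 4. In PFC it was at 3.29 FPKM in control, 0.257 FPKM in CMS + saline, 2.86 FPKM in CMS + MGO and 3.63 FPKM in CMS + luteolin. In hippocampus it was at 0.542 FPKM in control, 0.283 FPKM in CMS + saline, 0.15 FPKM in CMS + MGO and 9.97 FPKM in CMS + luteolin. Only the CMS + saline library was under 1 FPKM in PFC, whereas in hippocampus only the CMS + luteolin library was above it. The tissues overlapped, since the lowest PFC value lay among the hippocampus values and the highest value of all was from hippocampus. From lowest to highest over all 8 libraries the order was CMS + MGO hippocampus, CMS + saline PFC, CMS + saline hippocampus, control hippocampus, CMS + MGO PFC, control PFC, CMS + luteolin PFC and CMS + luteolin hippocampus. With 1 library per condition, no spread is available to say which neighbours in this order differ. Bdnf passed the filter on mean level (2.62 FPKM over the 8 libraries) through its 4 higher libraries.

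Ntrk2, the receptor, was at least 7.3 times as abundant as Bdnf per length of gene model in every library. In PFC it was at 112 FPKM in control, 77.6 FPKM in CMS + saline, 30 FPKM in CMS + MGO and 107 FPKM in CMS + luteolin. In hippocampus it was at 75 FPKM in control, 71 FPKM in CMS + saline, 68.1 FPKM in CMS + MGO and 72.8 FPKM in CMS + luteolin. The hippocampus libraries were close together and the PFC libraries were not: control and CMS + luteolin were high, CMS + saline was near the hippocampus level and CMS + MGO was the lowest of the 8. From lowest to highest the order was CMS + MGO PFC, then the hippocampus libraries of CMS + MGO, CMS + saline, CMS + luteolin and control, then CMS + saline, CMS + luteolin and control PFC.

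**Figure D1:**
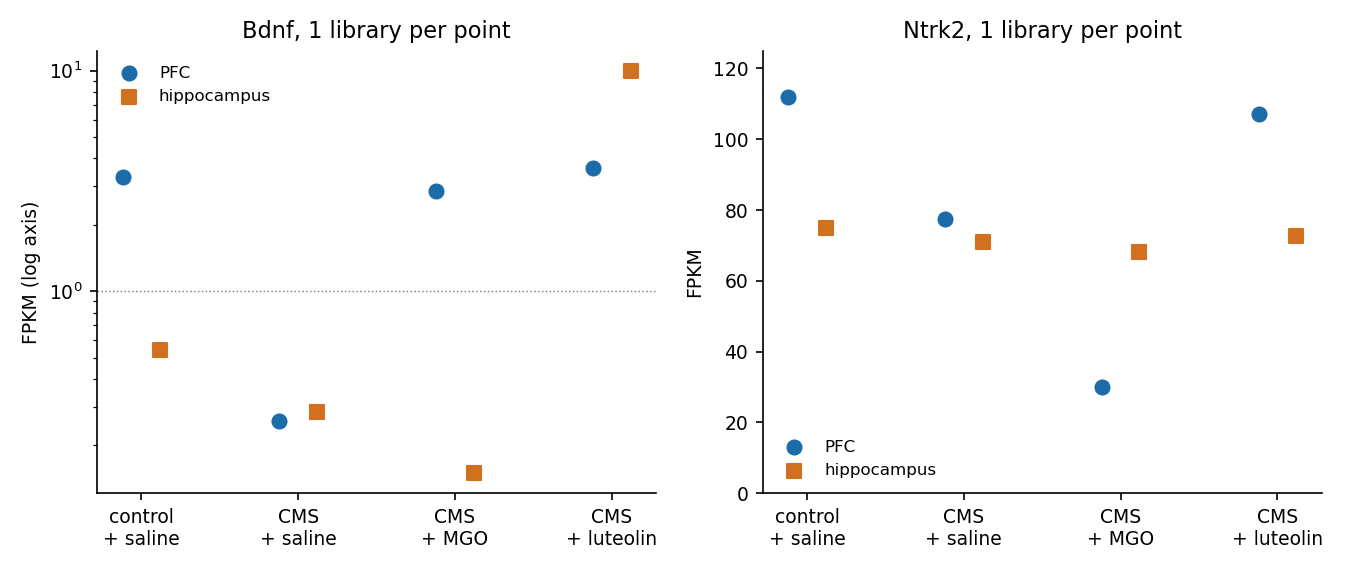
FPKM of Bdnf (left, log axis, dotted line at 1 FPKM) and Ntrk2 (right, linear axis) by treatment, with 1 library per point, circles for PFC and squares for hippocampus. Bdnf lies under 1 FPKM in 4 libraries and reaches 9.97 FPKM in CMS + luteolin hippocampus, and Ntrk2 stays between 68.1 and 75 FPKM in hippocampus but is at 30 FPKM in CMS + MGO PFC.

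Relative to the 12155 genes of the same library, Ntrk2 stood at percentiles 92.1 to 93.6 in hippocampus and 93.4 to 96 in 3 PFC libraries. In CMS + MGO PFC it stood at percentile 83. Bdnf stood at percentiles 21.5, 26.2 and 28.3 in the CMS + MGO, control and CMS + luteolin PFC libraries and at 1.33 in the CMS + saline PFC library. In hippocampus it stood at 1.06 to 2.44 in 3 libraries and at 54.5 with luteolin. These ranks do not depend on the scaling of a library.

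The receptor RNA had a small coefficient of variation in hippocampus and a large one in PFC. Over the 4 hippocampus libraries the coefficient of variation of Ntrk2 was 4.04%, and 3.34% of genes varied less. Over the 4 PFC libraries it was 46.1%, and 88.8% of genes varied less. Bdnf varied widely in both, with 61.1% in PFC (93.3% of genes varied less) and 176% in hippocampus (99.4% varied less). In PFC, 1 library lay at least 2-fold from the rest, CMS + saline for Bdnf and CMS + MGO for Ntrk2. In hippocampus, CMS + luteolin did so for Bdnf. The genes used for comparison were not matched on level. These coefficients include the treatments and were not tested.

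**Figure D2:**
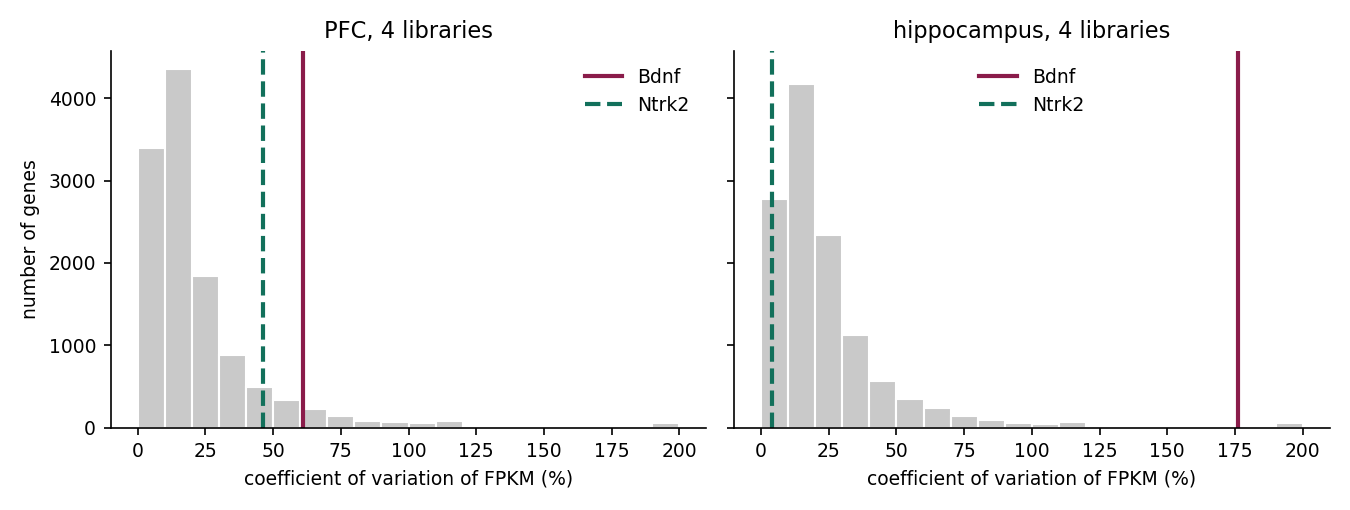
Number of genes (vertical axis) by coefficient of variation of FPKM over the 4 libraries of a tissue in percent (horizontal axis), for the 12155 genes that averaged 1 FPKM or more. The solid line marks Bdnf at 61.1% in PFC and 176% in hippocampus, and the dashed line marks Ntrk2 at 46.1% and 4.04%.

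PFC and hippocampus were compared over 4 pairs, each formed by both libraries of a treatment, and fitted over all 12155 genes, of which 15.9% differed (limma, adjusted p under 0.05). Neither Bdnf nor Ntrk2 was among them. The PFC mean of Bdnf was 2.51 ± 1.53 FPKM and the hippocampus mean 2.74 ± 4.83 FPKM (SD, n = 4). The difference in log2(FPKM + 1), PFC minus hippocampus, was 0.49 (SE 0.55, limma adjusted p = 0.569), so the log scale and the FPKM means differ in sign. Bdnf was higher in PFC by 1.48 in the control pair and 1.75 in the CMS + MGO pair. It was near equal in the CMS + saline pair (-0.03) and higher in hippocampus in the CMS + luteolin pair (-1.24). With a pseudocount of 0.1 in place of 1 the difference was 1.11 (limma adjusted p = 0.433). Without the CMS + luteolin pair, whose hippocampus library stood apart, the difference was 1.06 (limma adjusted p = 0.19). Without the CMS + MGO pair it was 0.07 (limma adjusted p = 0.948), and without the control pair 0.16 (limma adjusted p = 0.897).

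The PFC mean of Ntrk2 was 81.6 ± 37.6 FPKM and the hippocampus mean 71.7 ± 2.9 FPKM (SD, n = 4). The difference in log2(FPKM + 1), PFC minus hippocampus, was 0.02 (SE 0.32, limma adjusted p = 0.971). The receptor RNA was higher in PFC in 3 of 4 pairs, by 0.57 in control, 0.13 in CMS + saline and 0.55 in CMS + luteolin, and lower in the CMS + MGO pair (-1.16). Without the CMS + MGO pair the difference was 0.42 (SE 0.14, limma adjusted p = 0.149). The sign turned to -0.16 when the control pair was left out, to -0.01 when CMS + saline was and to -0.15 when CMS + luteolin was. Standard errors of this size leave room for a difference between tissues in either direction for both genes.

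Stress with saline was set against the unstressed control. In PFC, Bdnf was at 0.257 FPKM under stress against 3.29 FPKM in control, 12.8 times lower on FPKM and -1.77 in log2(FPKM + 1). In this comparison 6.83% of all genes differed at least 2-fold on that scale in either direction, and 3.06% of genes differed by more than Bdnf. Ntrk2 was at 77.6 against 112 FPKM, a log2 difference of -0.52 that stayed under 2-fold. In hippocampus, where 5.66% of genes differed at least 2-fold, neither gene did: Bdnf differed by -0.26 and Ntrk2 by -0.08 in log2(FPKM + 1). On FPKM, Bdnf was 1.91 times lower under stress there (0.283 against 0.542), a difference of -0.74 with a pseudocount of 0.1. In this and the following comparisons, FPKM ratios of Bdnf that rest on values under 1 FPKM carry an unknown counting error. The code in the descriptions changes along with stress here, and its part in the PFC difference was not tested.

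MGO was compared with saline in stressed rats. In PFC the ligand and the receptor differed in opposite directions. Bdnf was 11.1 times higher on FPKM with MGO (2.86 against 0.257), a difference of 1.62 in log2(FPKM + 1), while Ntrk2 was 2.59 times lower (30 against 77.6 FPKM), a difference of -1.34. Of all genes, 6.51% differed at least 2-fold in this comparison, 3.15% by more than Bdnf and 4.25% by more than Ntrk2. In hippocampus, where 6.01% of genes differed at least 2-fold, Bdnf differed by -0.16 (1.89 times lower on FPKM) and Ntrk2 by -0.06. Against the unstressed control, which shares its description code with MGO, Bdnf in PFC differed by -0.15 and Ntrk2 by -1.87 in log2(FPKM + 1). There, 6.86% of genes differed at least 2-fold and 2.68% by more than Ntrk2. The low Bdnf value thus belonged to the CMS + saline PFC library and the low Ntrk2 value to the CMS + MGO PFC library. In hippocampus, against the control, Bdnf was 3.61 times lower on FPKM with MGO (0.15 against 0.542), a difference of -0.42 in log2(FPKM + 1) and of -1.36 with a pseudocount of 0.1, which passes 2-fold. Ntrk2 differed by -0.14 there, where 5.68% of genes differed at least 2-fold.

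Luteolin was compared with saline in stressed rats too, so this comparison and that of MGO share their CMS + saline libraries. In PFC, Bdnf was 14.1 times higher on FPKM (3.63 against 0.257), a difference of 1.88 in log2(FPKM + 1), where 6.52% of genes differed at least 2-fold and 2.3% by more than Bdnf. Ntrk2 differed by 0.46. In hippocampus, Bdnf was 35.2 times higher (9.97 against 0.283 FPKM), a difference of 3.10, where 7.52% of genes differed at least 2-fold and 0.724% by more. Ntrk2 in the same hippocampus libraries differed by 0.03. Both Bdnf ratios on FPKM divide by CMS + saline values under 1 FPKM, at percentile 1.33 in PFC and 1.32 in hippocampus. Against the control, both genes were close in PFC, Bdnf by 0.11 and Ntrk2 by -0.07, where 6.3% of genes differed at least 2-fold. In hippocampus, Bdnf was 2.83 above control, where 6.61% of genes differed at least 2-fold, and Ntrk2 differed by -0.04. Ntrk2 in the CMS + luteolin hippocampus library was at 72.8 FPKM, and the hippocampus mean, with this library included, was 71.7 FPKM. The hippocampus values with luteolin rest on this library, which stood apart from its tissue. The part of that in the Bdnf value was not tested.

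Luteolin and MGO under stress share their description code. In PFC, where 6.37% of genes differed at least 2-fold, Ntrk2 was 3.56 times higher with luteolin (107 against 30 FPKM), a difference of 1.80 in log2(FPKM + 1), and Bdnf differed by 0.26. In hippocampus, where 8.11% of genes differed at least 2-fold, Bdnf was higher by 3.25 (9.97 against 0.15 FPKM) and Ntrk2 differed by 0.09. Here the libraries differed in the receptor in PFC and in the ligand in hippocampus.

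**Figure D3:**
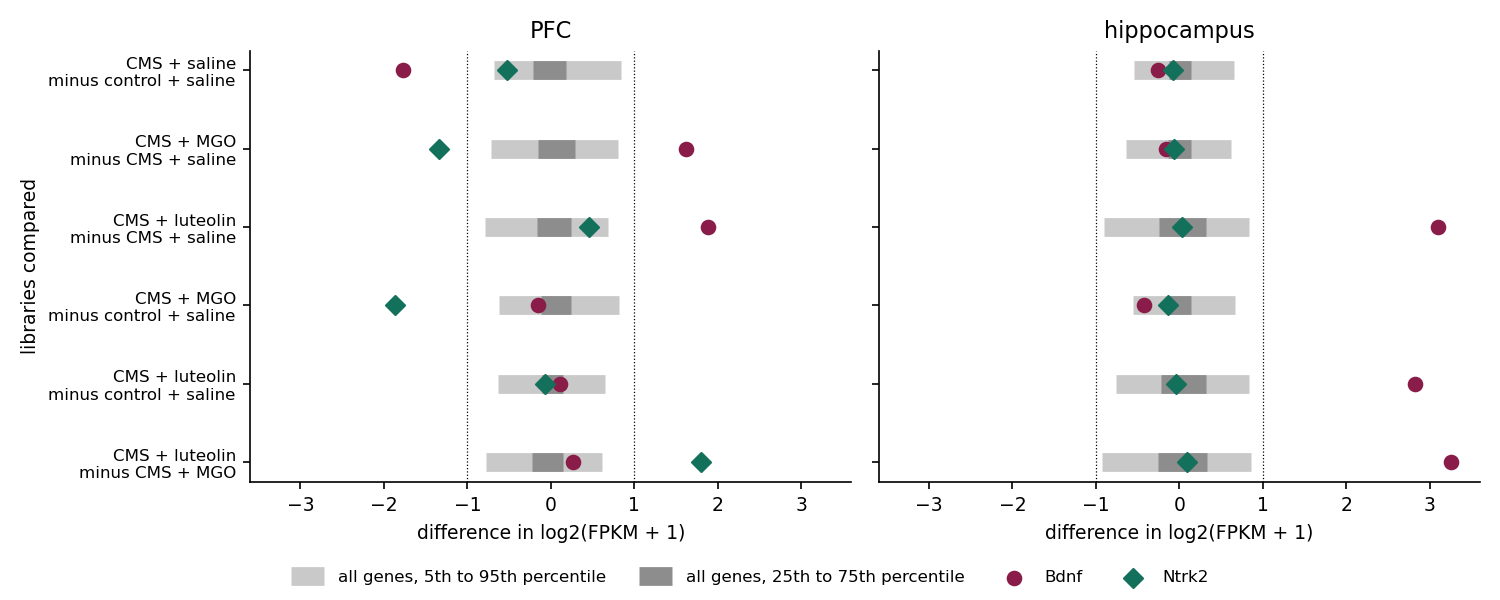
Difference in log2(FPKM + 1) between 2 libraries of a tissue (horizontal axis) for each of 6 pairs of treatments (vertical axis), with circles for Bdnf, diamonds for Ntrk2, bars for the 5th to 95th and 25th to 75th percentile of all 12155 genes and dotted lines at 2-fold. In PFC Bdnf leaves the lines in the 3 pairs with CMS + saline and Ntrk2 in the 3 pairs with CMS + MGO, and in hippocampus Bdnf does so in the 3 pairs with CMS + luteolin and Ntrk2 in none.

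Of the 6 pairs of libraries in each tissue, Bdnf differed at least 2-fold in 3 in PFC and 3 in hippocampus, and Ntrk2 in 3 in PFC and 0 in hippocampus. Each set of 3 shared 1 library. In PFC, Bdnf was lower in CMS + saline than in the other 3, which ran from 2.86 to 3.63 FPKM, and 0.666% of all genes had that library alone at least 2-fold lower. Ntrk2 was lower in CMS + MGO PFC than in the other 3, which ran from 77.6 to 112 FPKM, and 0.724% of genes had this pattern. In hippocampus, Bdnf was higher in CMS + luteolin than in the other 3, which ran from 0.15 to 0.542 FPKM, and 1% of genes had this pattern. A pattern of any 1 library apart in this way was found for 6.06% of genes in PFC and 5.88% in hippocampus. The other 3 Bdnf values in hippocampus lie within 2-fold of each other in log2(FPKM + 1) but 3.61-fold apart on FPKM.

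The ligand was then set against its receptor within each library, a ratio that does not depend on library scaling. In PFC, log2(Bdnf/Ntrk2) on FPKM was -5.09 in control, -8.24 in CMS + saline, -3.39 in CMS + MGO and -4.88 in CMS + luteolin. In hippocampus it was -7.11 in control, -7.97 in CMS + saline, -8.83 in CMS + MGO and -2.87 in CMS + luteolin. On FPKM without a pseudocount, the MGO-treated rat thus gave both the highest ratio in PFC and the lowest of all in hippocampus. The latter rests on a Bdnf value of 0.15 FPKM. With a pseudocount of 1, CMS + MGO was still the highest in PFC and the lowest in hippocampus, but CMS + saline PFC was the lowest of all. Ntrk2 exceeded Bdnf 10.5-fold in CMS + MGO PFC and 454-fold in CMS + MGO hippocampus. The mean ratio was -5.40 ± 2.04 in PFC and -6.69 ± 2.65 in hippocampus (SD, n = 4), a difference of 1.29 (exact permutation test, two-sided, p = 0.457 over 70 assignments, smallest possible 0.0286). With the pseudocount of 1 used elsewhere, the difference was 0.46 (exact permutation test, two-sided, p = 0.657). The exact sign-flip test over the 4 pairs gave p = 0.625, with 0.125 the smallest it allows. Without the CMS + MGO pair the difference turned to -0.09, and without the CMS + luteolin pair it was 2.40, where the exact permutation test gave p = 0.3 against a smallest possible 0.1.

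**Figure D4:**
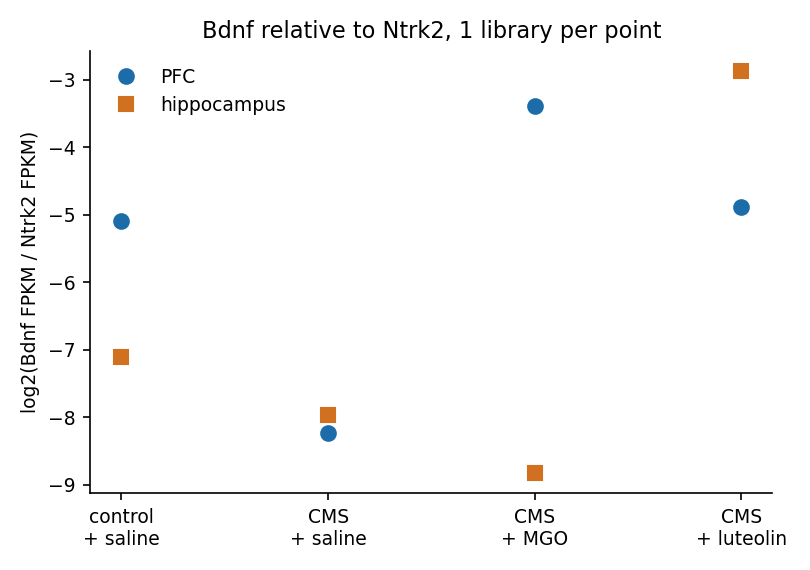
Log2 of the Bdnf-to-Ntrk2 ratio of FPKM (vertical axis) by treatment, with 1 library per point, circles for PFC and squares for hippocampus. The PFC and hippocampus libraries of CMS + saline lie close together at -8.24 and -7.97, and those of CMS + MGO lie farthest apart at -3.39 and -8.83.

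Genes whose pattern over the 8 libraries was most like that of Bdnf or Ntrk2 were ranked by Pearson's r of log2(FPKM + 1) over the 12155 genes. The 8 points share 2 tissues and 4 treatments, and the genes were picked as the extremes, so r is a description. For Bdnf, ENSRNOG00000050220 (r = 0.988) and ENSRNOG00000015229 (r = 0.987) were the most alike, and ENSRNOG00000016619 (r = -0.984) and ENSRNOG00000001643 (r = -0.98) the most opposed. ENSRNOG00000050220 ran only from 16.3 FPKM in CMS + saline PFC to 28.6 FPKM in CMS + luteolin hippocampus, a far narrower range than that of Bdnf. For Ntrk2, ENSRNOG00000013872 (r = 0.983) and ENSRNOG00000046912 (r = 0.982) were the most alike, and ENSRNOG00000000613 (r = -0.971) and ENSRNOG00000056694 (r = -0.961) the most opposed. ENSRNOG00000046912 had 8.14 FPKM in CMS + MGO PFC, against 17 to 26.2 FPKM in the other 7 libraries. ENSRNOG00000000613 had 22.7 FPKM in that library, against 7.2 to 11.9 FPKM in the others. Spearman's rho was lower in size for several of them: 0.881 for ENSRNOG00000050220 and -0.857 for ENSRNOG00000016619 with Bdnf, and 0.81 for ENSRNOG00000046912 and -0.524 for ENSRNOG00000056694 with Ntrk2. The CMS + MGO PFC library was the lowest or highest for each of the 4 genes named for Ntrk2.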

How the data were processed

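The authors' file gives a single number for each gene in each library, treated here as FPKM. No header or label states this unit. It was inferred from the tools and from values that are not whole and sum to 300281 to 352740 per library. The submitters' processing notes list HISAT2 (2.0.4), StringTie (1.2.4), FastQC (0.11.5) and Rnor_6.0 (rn6) as the build. For the annotation release, any filters and the step from transcripts to genes, the sources used here say nothing.

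The tissue fit and the treatment differences in log2 used log2(FPKM + 1) over the 12155 genes averaging 1 FPKM or more. This scale shrinks differences of low genes such as Bdnf. The main ratio test used the log2 ratio of FPKM without a pseudocount. The tissue comparison was a two-sided limma fit (version 3.58.1, R 4.3.3) with a mean-variance trend and a block for treatment, leaving 3 residual degrees of freedom. Its p-values were Benjamini-Hochberg adjusted over all genes and called under 0.05. The step was also run on simulated data with independent noise. That run had no library that stood apart, so it does not cover this feature of the data. The pairing rests on the protocol, by which a rat gave both tissues. Since the protocol mentions no luteolin rat, this was assumed for the CMS + luteolin pair. Deviations of paired libraries from their tissue means correlated over genes with r = 0.0458 to 0.175. P-values thus reflect how the tissue difference varied between treatments. Treatments, with 1 library each, were compared without a test. The ratio was tested with exact permutations (Python 3.11.15, numpy 2.4.6, pandas 2.3.3, scipy 1.17.1, matplotlib 3.10.9). Relative depth is the modal ratio of values under 0.2 FPKM in 2 libraries. Alternatives changed the block, pseudocount, filter, scaling, trend and pairs kept. Genes given by name were Bdnf, Ntrk2 and, with no symbols, the 2 IDs at each end of the likeness ranking. The members, lists and tests were chosen with earlier results of these data known.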

Additional observations from a re-analysis of the deposited data

Results flagged for a closer look

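Bdnf in the CMS + luteolin hippocampus library, at 9.97 FPKM, lay far from the other 3 hippocampus libraries (0.15 to 0.542 FPKM). Its gap to the nearest was 0.96 of the whole range, past Dixon's 95% critical value for 4 samples. It was 1 of 6 groups of 4 values tested (Bdnf, Ntrk2 and their ratio in each tissue). For replicates drawn from a normal distribution, chance puts about 1 in 20 groups past this value. The 4 libraries come from different treatments, so they are not replicates, and the gap was taken on FPKM without a log. That rate need not hold here. The gap of the log2 Bdnf-to-Ntrk2 ratio in hippocampus was 0.712 of its range and was not past the critical value. Ntrk2 in the CMS + luteolin hippocampus library was 72.8 FPKM, inside the range of the other 3 (68.1 to 75 FPKM). Over all genes this library was farthest from its tissue, and the part of that in the Bdnf value was not tested.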

How the results depend on the processing

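With a pseudocount of 0.1 in place of 1, Bdnf kept its direction but moved in PFC to -3.25 for stress against control, 3.05 for MGO and 3.39 for luteolin against CMS + saline. In hippocampus it moved to 4.72, 3.97 and 5.33 for luteolin against CMS + saline, control and CMS + MGO, and to -1.36 for MGO against control, which passes 2-fold only there. With that pseudocount, the remaining 5 of 12 treatment differences of Bdnf and 12 of 12 of Ntrk2 stayed within 1.5-fold and on their side of 2-fold, as did 12 of 12 for each gene with median-ratio size factors and with quantile normalization. A pseudocount of 0.1 moved the tissue difference of Bdnf from 0.49 to 1.11 (limma adjusted p = 0.433), and adding a pseudocount of 1 moved that of the ratio from 1.29 to 0.46. At 1.5-fold in place of 2-fold, Bdnf and Ntrk2 passed in the same number of pairs (3 and 3 in PFC, 3 and 0 in hippocampus), where 10.4% to 22.1% of all genes did. Leaving out 1 treatment pair moved the tissue difference between 0.07 and 1.06 for Bdnf and between -0.16 and 0.42 for Ntrk2. The Ntrk2 values also included -0.01 and -0.15, so the sign turned in 3 of 4. For the Bdnf-to-Ntrk2 ratio the difference moved between -0.09 and 2.40. No setting brought either gene past the threshold. The ratio did not pass it in the main permutation test or with a pseudocount of 1. Its sign-flip test and its tests with 1 pair left out could not pass, since the smallest possible p was 0.125 and 0.1. Without the treatment block, the limma adjusted p was 0.705 for Bdnf and 0.978 for Ntrk2. A filter at a mean of 5 FPKM removes Bdnf, so it gave no value. The count of all genes that differed between tissues fell from 1937 to 243 to 838 when 1 pair was left out. Reads per gene were not recovered, so the counting error of the Bdnf values under 1 FPKM is unknown.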

Other observations

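The values of 4681 genes, Bdnf and Ntrk2 among them, were written with more than 6 decimals in at least 1 library, and those of the other 26504 genes with at most 6. The way values with more decimals were made is not given in the sources used here. Among genes averaging 1 FPKM or more, between 3.4% and 5.41% of those with more decimals differed at least 2-fold in a pair of libraries of a tissue, over 12 such pairs, against 6.54% to 9.22% of the others. A pattern of 1 library apart from the other 3 of its tissue, as Bdnf had in both tissues and Ntrk2 in PFC, was found in PFC for 3.37% of genes with more decimals and 7.15% of the others. In hippocampus it was found for 3.51% and 6.85%. This split by decimals was chosen after seeing the data and was not tested.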
